A study of Mus musculus with 6 samples.

Results

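The genes for the colony-stimulating factors and their receptors were followed in RAW264.7 cells, a mouse macrophage line, with and without knockdown of Trem2. The 9 genes, chosen by name with this comparison in view, were 4 ligand genes (Csf1, Il34, Csf2 and Csf3) and 5 receptor genes (Csf1r, Csf2ra, Csf2rb, Csf2rb2 and Csf3r), out of 56092 gene symbols measured. All cells carried a lentiviral vector with GFP and were selected with puromycin. The control line expressed the negative control hairpin (shNC) and the knockdown line a hairpin against Trem2 (shTrem2), with 3 RNA-seq libraries each. Both lines first received IL-4 (20 ng/mL, 24 hours) and then, over a further 24 hours, debris of TCMK-1 cells, a mouse renal tubular epithelial line. No library without IL-4 or without debris was analysed here, the labels do not say which of the study's Trem2 hairpins was sequenced, and they do not say whether replicates were separate cultures, so the spread between libraries may be technical.

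Colony-stimulating factors control the production, survival and activation of myeloid cells. M-CSF (Csf1) and IL-34 (Il34) both bind the receptor tyrosine kinase CSF1R, which macrophages depend on for survival and which removes its own ligand from the surroundings by taking it up. GM-CSF (Csf2) binds a specific alpha chain (Csf2ra) that pairs with the beta common chain (Csf2rb) shared with the IL-3 and IL-5 receptors. Mice carry a near copy of this chain, Csf2rb2, which serves IL-3 only. G-CSF (Csf3), the main growth factor of neutrophils, binds a homodimer of CSF3R.

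Total counts assigned to named genes ranged from 15876061 to 18088372 in shNC and from 19358113 to 19655158 in shTrem2. Counts are given as CPM, scaled to the size of each library by TMM, and 3 counts correspond to between 0.153 and 0.189 CPM, the limit that a count of 0 allows for counting error alone. Trem2 was at 114, 122 and 144 CPM in shNC and at 64.7, 63.2 and 80.2 CPM in shTrem2, a log2 fold change of −0.87 (SE 0.094, edgeR quasi-likelihood adjusted p = 3.39e-06), while its mean FPKM was 178 and 41.7. The difference was smaller in counts than on log2(FPKM + 1), where it was −2.06, and the cause of this gap was not tested. The macrophage genes Adgre1, Cd68, Itgam and Cd14 were detected, and Mertk stayed at or below 3 counts. They did not move together: the criteria were met upwards by Lyz2, Fcgr1 and Mrc1 and downwards by Itgam (log2 fold change −0.78, adjusted p = 8.43e-09), and Adgre1 differed by −0.56 (adjusted p = 3.54e-05). The summed level of the 8 macrophage markers was between 4160 and 4998 CPM in shNC and between 8406 and 9748 CPM in shTrem2, most of it Lyz2, the lysozyme gene of myeloid cells. The part of these marker differences in the values below was not tested. In these bulk libraries, fewer cells with a transcript and less transcript per cell cannot be told apart.

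The beta chain genes Csf2rb and Csf2rb2 are close copies, and their sequences are shown because the counts of each depend on how well reads separate them. In GRCm38 (GENCODE M21), Csf2rb2 lies on chromosome 15 at 78282507 to 78305721 on the minus strand and Csf2rb at 78325752 to 78353847 on the plus strand, 20030 nt apart and pointing away from each other. Their main coding sequences are 2688 nt (Csf2rb) and 2634 nt (Csf2rb2) long and are identical at 95.2% of 2628 aligned bases. The stretch of 120 coding bases where they differ most, with 22 differences shown in capitals, runs from coding position 309 in Csf2rb and 312 in Csf2rb2.
Csf2rb: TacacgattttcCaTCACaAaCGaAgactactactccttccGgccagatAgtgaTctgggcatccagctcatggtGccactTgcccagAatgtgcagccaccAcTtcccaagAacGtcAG
Csf2rb2: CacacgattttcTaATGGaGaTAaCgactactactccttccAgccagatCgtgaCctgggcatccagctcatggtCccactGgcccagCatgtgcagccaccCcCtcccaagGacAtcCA
The stretch from position 2083 to 2202 has no difference at all, so bases inside it do not tell the genes apart.
Csf2rb and Csf2rb2: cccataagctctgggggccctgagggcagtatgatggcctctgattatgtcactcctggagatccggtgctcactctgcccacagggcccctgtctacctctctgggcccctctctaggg
Over the whole main transcripts, 3.58% of the 4615 windows of 150 nt in Csf2rb occur in a Csf2rb2 transcript. The division of counts between the genes is therefore an estimate, and values for their sum are given beside those for each gene.

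The range of levels was wide, and Csf1r stood far above the other genes. On the authors' FPKM scale, which divides by length and allows comparison between genes, Csf1r was at 307 ± 20.6 in shNC (SD, n = 3) and 489 ± 10.9 in shTrem2. It lay above 98.1% of the 14200 protein-coding genes detected in shNC and above 98.7% of the 14183 detected in shTrem2. Csf2ra followed at 76.1 ± 2.27 and 61.6 ± 6.71 FPKM. Csf3r came next in shNC at 10.9 ± 0.254 FPKM, followed by Csf2rb at 3.41 ± 0.316. In shTrem2 this order was turned, with Csf2rb at 9.25 ± 0.240 FPKM and Csf3r at 3.44, with libraries from 2.36 to 5.15. Csf1, Csf2rb2 and Csf3 took the next places in shNC at 2.04, 1.81 and 1.36 FPKM, and each overlapped its neighbour in the range over libraries. In shTrem2, Csf3r and Csf2rb2 overlapped, as did Il34 and Csf3. Il34 and Csf2 were the lowest in shNC, at 0.360 and 0.117 FPKM.

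**Figure D1:**
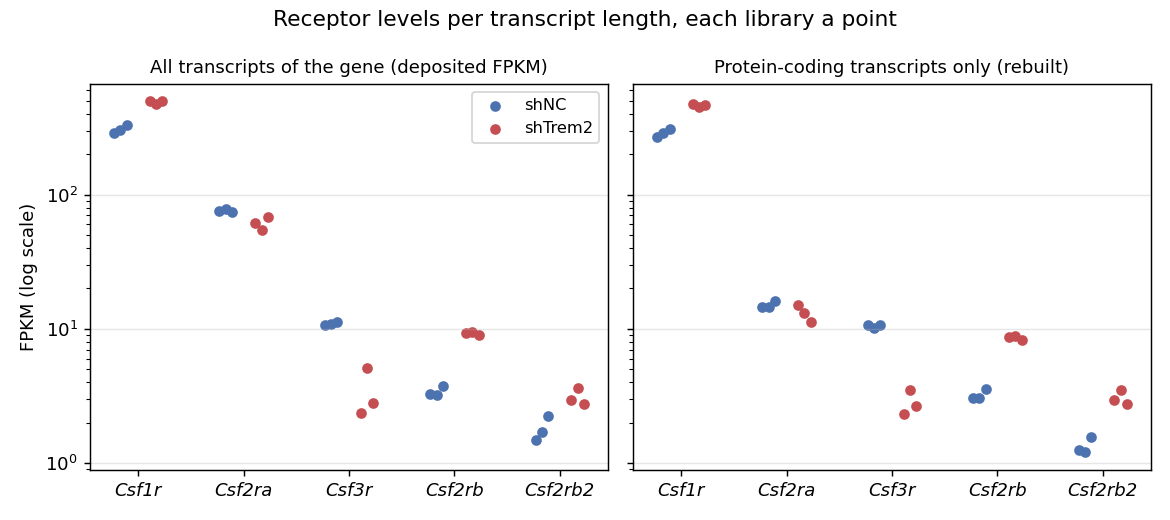
FPKM of each receptor gene on a log axis in the 3 shNC and 3 shTrem2 libraries, with all transcripts and with protein-coding transcripts alone. Csf1r is the highest in both groups, and Csf2rb and Csf3r exchange places between shNC and shTrem2.

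Of the 9 genes, 7 passed the filter on low counts, and Il34 and Csf2 did not. The differential expression criteria (FDR under 0.05 and fold change over 1.5) were met by 6 of the 7, 3 higher and 3 lower in shTrem2, against 21.8% of the 13528 genes tested, 9.46% higher and 12.4% lower. The libraries of the groups did not overlap in any of the 7, which held for 63.8% of all tested genes (32.1% higher and 31.7% lower in shTrem2). An FDR under 0.05 at any fold was reached by 57.4% of tested genes, and together with a fold change over 2 by 9.9%. Since the genes were selected with this comparison known, nothing is read from these counts, and their differences are given as descriptions without p-values.

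Among the ligands, Csf1 was lower in shTrem2. Csf1 (ENSMUSG00000014599, chromosome 3, 107741048 to 107760469 in GRCm38) encodes M-CSF, which macrophages can make for themselves. It was measured at 7.58, 8.32 and 5.77 CPM in shNC and at 1.88, 2.56 and 2.32 CPM in shTrem2. Every shTrem2 library was below every shNC library, and replicate 3 was the lowest of shNC. The log2 fold change was −1.68 (SE 0.200), 3.20-fold lower, from 377 counts in shNC and 130 in shTrem2. Csf1 was a low transcript in either line: it lay above 30.3% of detected protein-coding genes in shNC and above 24.7% in shTrem2.

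Csf3 (ENSMUSG00000038067, chromosome 11, 98701263 to 98703629 in GRCm38), which encodes G-CSF, was lower as well. Its counts were 24, 39 and 14 in shNC and 1, 4 and 4 in shTrem2, or 1.49, 2.16 and 0.770 against 0.0522, 0.209 and 0.206 CPM. The groups did not overlap, although the shNC libraries differed among themselves more than those of any receptor gene. The fitted log2 fold change was −3.19 (SE 0.551), and the summed counts, 77 against 9, gave a ratio of 9.67 with an exact 95% interval for counting error of 4.84 to 21.9 after scaling. The other ligands were near the detection limit. Il34 (ENSMUSG00000031750), the second ligand of CSF1R, had 6, 6 and 11 counts in shNC and 4, 11 and 3 in shTrem2, and the groups overlapped. Its ratio of shTrem2 to shNC was 0.693 (95% interval 0.352 to 1.34), so a difference in Il34 was not detectable at this depth. Csf2 (ENSMUSG00000018916), the GM-CSF gene, had 0, 2 and 1 counts in shNC and 0 in every shTrem2 library, which is within the limit that a count of 0 allows, and no fold is given.

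**Figure D2:**
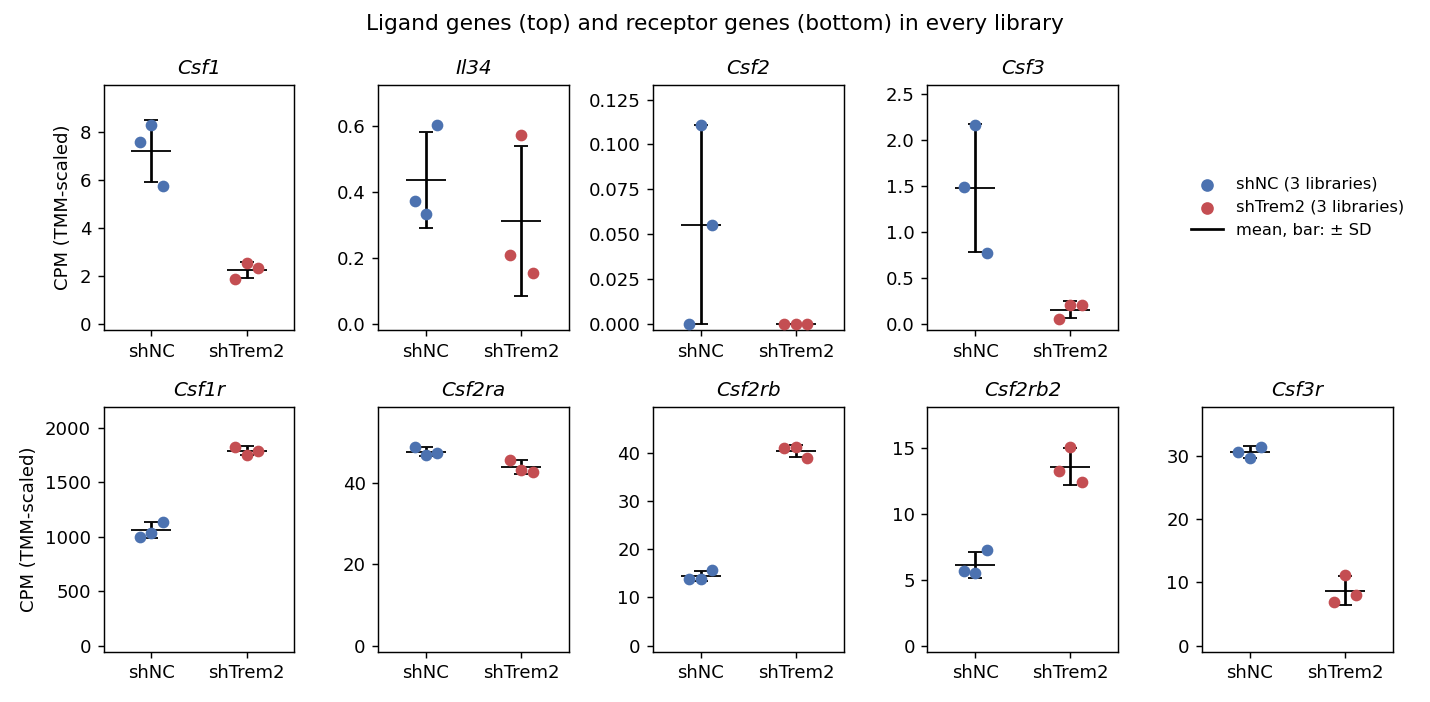
CPM of the 4 ligand genes (top row) and the 5 receptor genes (bottom row) in each library, with the group mean and SD (n = 3). Each panel has its own linear axis: Csf1, Csf3 and Csf3r are lower in all 3 shTrem2 libraries, Csf1r, Csf2rb and Csf2rb2 are higher, and Il34 overlaps between the groups.

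The receptor for the first of these ligands was higher. Csf1r (ENSMUSG00000024621) was at 1002, 1037 and 1139 CPM in shNC and at 1828, 1753 and 1791 CPM in shTrem2. The groups were far apart relative to their spread, and the shTrem2 libraries lay close together. The log2 fold change was 0.76 (SE 0.052), 1.69-fold higher. With 55520 counts summed over shNC and 103343 over shTrem2, Csf1r was the best measured of the 9 genes. In each library, the FPKM of Csf1r was set against that of its ligand gene Csf1. The ratio was 130, 130 and 208 in shNC and 973, 701 and 677 in shTrem2. These ratios compare transcripts per length, not proteins.

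The counts of Csf1r could be assigned to annotated transcripts, because the FPKM rebuilt from the rows matched the deposited value within 0.173% for only 1 order of rows, against 0.816% for the next best. A pair of transcripts carried nearly all of them, Csf1r-201 (3870 nt) and Csf1r-202 (4701 nt), which share an identical coding sequence of 2931 nt and differ outside it. Csf1r-201 held 56.9% of the counts in shNC (54.8% to 60.0% over libraries) and 48.3% in shTrem2 (43.4% to 51.8%). The longer Csf1r-202 held 42.6% in shNC (39.5% to 44.8%) and 51.3% in shTrem2 (47.8% to 56.1%). The ranges did not overlap, and the change in share was not tested. Protein-coding transcripts of Csf1r summed to 288 FPKM in shNC and 462 in shTrem2, so the higher level did not rest on non-coding rows.

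The chains of the GM-CSF receptor differed from each other. Csf2ra (ENSMUSG00000059326, chromosome 19), the ligand-specific alpha chain, was at 48.9, 46.9 and 47.2 CPM in shNC and at 45.7, 43.2 and 42.7 CPM in shTrem2. The groups were close, with a log2 fold change of −0.12 (SE 0.059), and the criteria for differential expression were not met. On the FPKM scale the difference was −0.31, with either pseudocount. Most of the FPKM of Csf2ra came from short transcripts not annotated as protein-coding. In the best matching order of rows, its protein-coding transcript was at 15.1 ± 0.984 FPKM in shNC and 13.1 ± 1.95 in shTrem2, and these ranges, 14.4 to 16.2 and 11.2 to 15.1, overlapped. In all, 4 such orders matched about equally well, and all put the first row on a protein-coding transcript.

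Csf2rb (ENSMUSG00000071713), the signalling chain, was higher. It was at 13.9, 13.9 and 15.6 CPM in shNC and at 41.0, 41.3 and 38.9 CPM in shTrem2, with no overlap and little spread in either group. The log2 fold change was 1.48 (SE 0.076), 2.79-fold higher. The near copy Csf2rb2 (ENSMUSG00000071714) was at 5.65, 5.49 and 7.26 CPM in shNC and at 13.3, 15.2 and 12.4 CPM in shTrem2, again without overlap. Its log2 fold change was 1.15 (SE 0.139), 2.22-fold higher, but 0.55 on log2(FPKM + 1), which is under 1.5-fold. Protein-coding transcripts made up 84.5%, 70.7% and 70.0% of Csf2rb2 FPKM in shNC and 99.9%, 96.1% and 99.9% in shTrem2. With these transcripts alone, Csf2rb2 was at 1.35 ± 0.195 FPKM in shNC and 3.06 ± 0.386 in shTrem2. Both genes were thus higher in all 3 shTrem2 libraries, and with their counts summed the log2 fold change was 1.39. Csf2rb2 made up 28.9%, 28.4% and 31.7% of the counts of the pair in shNC and 24.5%, 26.8% and 24.2% in shTrem2. The ratio of alpha to beta chain was lower in shTrem2. The FPKM of Csf2ra was 23.2, 24.6 and 19.7 times that of Csf2rb in shNC and 6.59, 5.82 and 7.60 times in shTrem2. From protein-coding transcripts alone the ratio was far smaller, at 4.72, 4.75 and 4.58 in shNC and 1.73, 1.48 and 1.37 in shTrem2, and the groups were again apart. These ratios use the best matching order of the Csf2ra rows. Over the orders that matched about equally well, the protein-coding share of Csf2ra FPKM was 18.8% to 23.6% in shNC and 20.5% to 25.1% in shTrem2. The main transcripts of Csf2rb and Csf2rb2 held 97.3% and 97.1% of their genes' counts in shNC and 95.3% and 96.7% in shTrem2.

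Csf3r (ENSMUSG00000028859, chromosome 4, 126024550 to 126044440 in GRCm38), the G-CSF receptor, was lower together with its ligand gene. It was at 30.6, 29.6 and 31.5 CPM in shNC and at 6.94, 11.2 and 7.93 CPM in shTrem2. The shNC libraries were nearly equal, and the second shTrem2 library was the highest of its group. The log2 fold change was −1.81 (SE 0.133), 3.51-fold lower. That library also differed in its transcripts, since only 67.9% of its Csf3r FPKM came from protein-coding ones. With these alone, Csf3r was at 10.5 ± 0.318 FPKM in shNC and 2.83 ± 0.603 in shTrem2. Csf3r-201 held 77.0% of the counts in shNC and 76.2% in shTrem2. Over all transcripts, the FPKM of Csf2rb was 0.304, 0.296 and 0.338 times that of Csf3r in shNC and 3.96, 1.83 and 3.21 times in shTrem2. The 1.83 is from the second shTrem2 library, where protein-coding transcripts alone were at 8.79 FPKM for Csf2rb and 3.50 for Csf3r. Csf3r is best known from granulocytes, and of 8 granulocyte markers only Cxcr2 rose above 3 counts in any library, with at most 6, while S100a9, Mpo, Ltf and Camp were at 0 throughout.

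**Figure D3:**
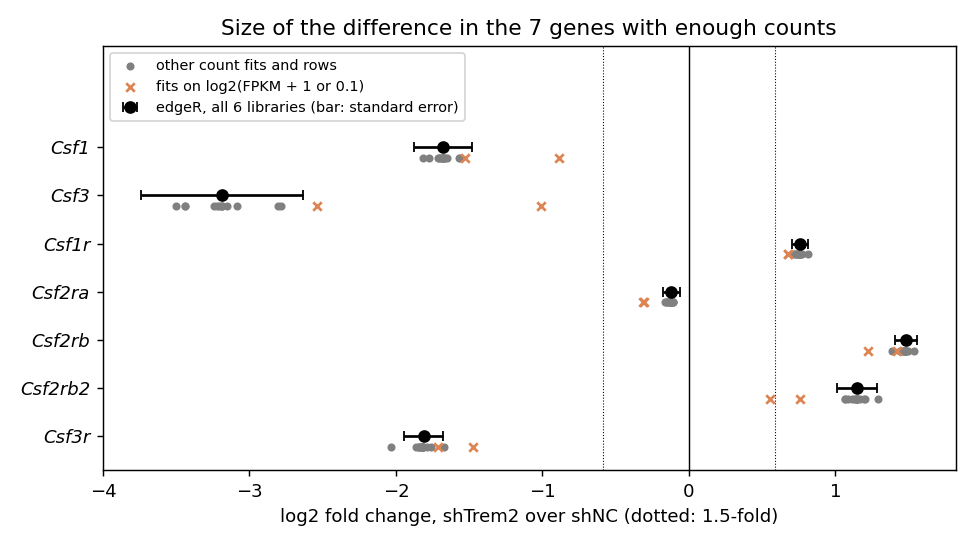
Log2 fold change of shTrem2 over shNC for the 7 genes with enough counts, with the standard error of the edgeR fit (black) and the values from other count fits (grey) and from FPKM (crosses). Csf1r, Csf2rb and Csf2rb2 lie to the right of 0 and Csf1, Csf3 and Csf3r to the left in every fit, and Csf2ra stays between 0 and −0.31.

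Promoters of 5 of the genes were matched in the table of RefSeq promoters (GRCm38.p6) used here, and were taken as the 250 bases before the RefSeq start. RefSeq and GENCODE starts differ for some: the window reaches 109 bases into the GENCODE span of Csf3r and 11 bases into that of Csf2ra, and that of Csf2 lies 232 bases away from the gene. They were searched on both strands for the ETS-type core of PU.1, GAGGAAG, for TTNNGNAA, a C/EBP-type core, and for TGTGGT, a RUNX-type core, factors known for myeloid promoters. These motifs and genes were chosen after the expression values were seen. Csf2ra (chr19:61228419-61228668, minus strand) held 2 copies of GAGGAAG that share a base, between −14 and −2 from the start, and 1 of TTNNGNAA on the opposite strand. The GAGGAAG copy nearer the start and part of the other lie in the 11 bases inside the GENCODE span of Csf2ra. Csf2rb2 (chr15:78305722-78305971, minus strand) held 1 copy of GAGGAAG on the opposite strand (CTTCCTC as printed) between −168 and −162. They are shown because a receptor gene that did not meet the criteria and another that was higher in shTrem2 both held the motif, which is in capitals together with TTNNGNAA.
Csf2ra: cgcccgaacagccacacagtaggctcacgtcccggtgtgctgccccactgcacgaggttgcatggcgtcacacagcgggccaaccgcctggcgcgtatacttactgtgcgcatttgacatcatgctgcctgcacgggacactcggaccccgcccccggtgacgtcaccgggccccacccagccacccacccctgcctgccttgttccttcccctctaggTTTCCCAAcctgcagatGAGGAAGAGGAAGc
Csf2rb2: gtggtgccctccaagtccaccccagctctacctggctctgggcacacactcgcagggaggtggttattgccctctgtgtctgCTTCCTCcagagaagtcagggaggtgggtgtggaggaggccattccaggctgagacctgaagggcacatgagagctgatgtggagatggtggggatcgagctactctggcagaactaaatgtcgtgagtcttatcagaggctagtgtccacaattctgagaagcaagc
Csf3r, which was lower, held 1 copy of GAGGAAG between −86 and −80, inside its GENCODE span, and Csf1 held none of the 3 motifs. Csf2 held TTNNGNAA only. Of 32851 promoters of the same length, 10.6% held GAGGAAG, 36.8% TTNNGNAA and 14.0% TGTGGT. A match is a description of the letters only. Spi1, the PU.1 gene, was at 159 CPM in shNC and 220 in shTrem2, a log2 fold change of 0.47 (SE 0.056, adjusted p = 7.77e-06), under the fold criterion, and Cebpa differed by −0.13 (SE 0.112, adjusted p = 0.346). Runx1 differed by 0.49 (SE 0.060, edgeR adjusted p = 1.03e-05), also under the fold criterion, and Cebpb by 0.07 (SE 0.065, adjusted p = 0.386). Spi1, Cebpa, Runx1 and Cebpb were named after their values were seen.

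The partners of these receptors were taken from lists and tested over all genes, in which the median log2 fold change was −2.84e-05 and 21.8% met the criteria. In the counts for each list, genes that rose or fell are those that met the criteria, and smaller differences are not counted. Among 24 tested genes of proximal CSF1R signalling, 1 rose and none fell (4.17% called), with a median of 0.12. This was Src, a kinase that binds activated CSF1R, which rose from 1.39 to 3.85 CPM (log2 fold change 1.46, SE 0.227, adjusted p = 9.41e-05). Without the second shTrem2 library Tyrobp, the adaptor shared by TREM2 and CSF1R pathways, passed too, making 2, with a log2 fold change of 0.57 over all libraries. In proteolysis and down-regulation of CSF1R and CSF1, 3 of 13 tested genes rose and 2 fell (38.5%), with a median of 0.20. Sh3kbp1, an adaptor of CBL in receptor uptake, rose from 18.3 to 66.3 CPM (1.86, SE 0.074, adjusted p = 4.75e-10). Psen2 (0.62), a protease subunit, rose, and Rhbdf2 (−0.74) and Rhbdf1 (−0.71), the iRhom partners of the sheddase ADAM17, fell. The call of Psen2 held in 13 of 16 alternatives. It was lost without the third shNC library (0.57) and on FPKM with either pseudocount (0.50 and 0.53). Of 12 tested transcription factors known at the Csf1r locus, 2 rose and 1 fell (25%), close to the share over all genes, with a median of 0.16. Among them were Klf4 (1.59, SE 0.133, adjusted p = 3.04e-07), a monocyte factor, and Irf8 (−0.95, SE 0.057, adjusted p = 1.53e-08), a factor of monocyte and dendritic cell lineages.

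In the beta common family with its JAK and STAT proteins, 1 of 9 tested genes rose and 3 fell (44.4%), with a median of −0.06, and Il3, Il5, Il3ra and Il5ra were at 0 counts. Jak2, the kinase bound to the beta common chain, fell from 148 to 62.8 CPM (−1.24, SE 0.058, adjusted p = 1.40e-09), Tyk2 by 0.92 and Stat5a by 0.66 on the log2 scale. Ywhaz, a 14-3-3 protein, rose by 0.60 but passed in 10 of 16 alternatives only, and not without the second shNC or the third shTrem2 library (0.54 and 0.53). Of 11 tested feedback and survival targets of STAT5 and STAT3, none rose and 6 fell (54.5%, against 12.4% of all tested genes that fell), with a median of −0.80. Cish, a feedback inhibitor induced by STAT5, fell from 58.1 to 11.7 CPM (−2.31, SE 0.076, adjusted p = 9.87e-11). Ccnd2, a G1 cyclin, fell from 9.25 to 1.85 CPM (−2.32) and Bcl3, an IkB-like regulator, from 10.5 to 2.39 CPM (−2.13). Of 5 tested genes linked to GM-CSF in macrophages, 2 were called (40%). Itgax, the integrin chain CD11c, rose from 4.90 to 29.6 CPM (2.58, SE 0.154, adjusted p = 1.37e-08) and the chemokine gene Ccl22 fell (−2.34, SE 0.563, adjusted p = 0.00284), with a median of 0.24. Ccl22 was at most at 1.12 CPM in any library, and leaving out a library moved it between −3.42 (without the first shTrem2 library) and −1.92. Of 5 tested class III receptor tyrosine kinases, the family of CSF1R, and their ligands, 3 fell (60%), with a list median of −0.68. All 3 were ligand genes: Flt3l (−1.21), Pdgfb (−1.20) and Kitl (−0.68). The receptor genes Kit, Flt3 and Pdgfra were at 0 counts. The receptor gene Pdgfrb was tested but not called, at 0.477 CPM in shNC and 0.743 in shTrem2 (0.63). In the list of PTPRZ1, another IL-34 receptor, and mitogenic targets of M-CSF, 2 of 11 tested genes fell and none rose (18.2%), with a median of −0.10. They were Plau, the urokinase gene, from 239 to 40.1 CPM (−2.57, SE 0.083, adjusted p = 9.05e-11) and the AP-1 gene Fosl1 (−2.20), and Ptprz1 itself was at 0. Sdc1, also in this list, was at 23.3 CPM in shNC and 17.5 in shTrem2 (−0.41) and was not called. These lists are small, and no list was tested as a whole. The lists were chosen with earlier results of these data known, so nothing is read from their shares.

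**Figure D4:**
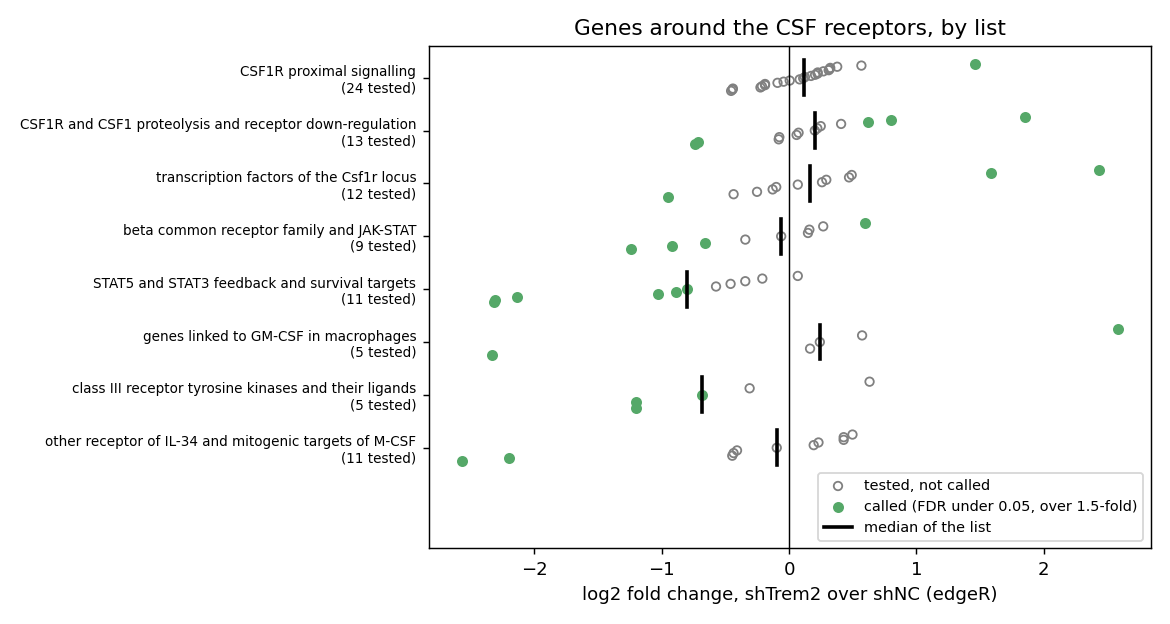
Log2 fold change of every tested gene of the 8 lists around the receptors, with genes that passed the criteria filled and the median of each list as a bar. The medians lie between −0.80 for the STAT5 and STAT3 targets and 0.24 for the genes linked to GM-CSF, and the filled gene of the CSF1R signalling list is Src.

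The genes whose levels moved most like Csf1 over the 6 libraries were Lilrb4a (Pearson r of log2 CPM 0.9996), Zfp266 (0.9991) and Lysmd3 (0.999), among 9603 genes. Those most like Csf1r were Atp5mg (0.9994), Ppp4r1 (0.9993) and Atad1 (0.9993). With 6 libraries in separate groups, such values follow mostly from the difference between the groups, and they are given as a description. Lilrb4a, an inhibitory receptor gene of myeloid cells, shared the order of libraries seen for Csf1, at 1051, 1070 and 924 CPM in shNC and 572, 646 and 624 CPM in shTrem2, at a far higher level.

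Markers of other cells were low. Of 14 tubular epithelial markers, 8 (Epcam, Cdh1, Krt8, Krt18, Krt19, Umod, Havcr1 and Slc12a1) were at 0 in all libraries, 2 were above 3 counts in any, and the summed level was 0.610 to 1.24 CPM in shNC and 2.24 to 2.98 in shTrem2, led by Aqp1. Dendritic cell markers summed to 7.92 to 8.64 CPM in shNC and 3.81 to 5.72 in shTrem2, mostly Zbtb46, with Flt3 and Cd209a at 0. The 5 T cell markers, led by Lck, summed to between 2.92 and 4.23 CPM in shNC and between 4.84 and 5.53 in shTrem2, B cell markers summed to at most 0.777 CPM, and fibroblast and endothelial markers summed to between 3.96 and 6.05 CPM in shNC and between 3.18 and 4.53 in shTrem2. Among these markers, the criteria were met upwards by Aqp1 (log2 fold change 2.30) and Lck (0.62) and downwards by Zbtb46 (−0.84). The part of these markers in the values of the receptor and ligand genes was not tested.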

How the data were processed

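RAW264.7 libraries were grouped by the hairpin in their labels (3 shNC, 3 shTrem2). Stranded poly(A) libraries were sequenced, and per the study's methods and the submitters' processing notes reads were trimmed with fastp, aligned with HISAT2 and assembled with StringTie, with GRCm39 as build; the counting tool and annotation release are not given in the sources used here. The authors deposited estimated counts per transcript (79.3% of nonzero values not whole) and FPKM per gene. Counts were summed per symbol (311 symbols had several identifiers) and rounded; unnamed rows (0.908% to 1.12%) were left out. edgeR 4.0.16 in R 4.3.3 (TMM, filterByExpr, quasi-likelihood test, Benjamini-Hochberg) was run without covariates and tested on simulated data. Genes were called at FDR under 0.05 and fold change over 1.5. Rows were matched to GENCODE M21 transcripts, of another build than the files, by rebuilding the FPKM, and a genome of the files' build was not used here. Alternatives included DESeq2 1.42.0, limma 3.58.1, other scalings and filters, FPKM with a pseudocount of 1 or 0.1, and leaving out each library. The 9 genes, the lists and the tests were chosen with earlier results of these data known. Named were the 9 genes, Trem2, in each list up to 3 called rises and falls, and the 3 genes most like Csf1 and Csf1r. Some genes that this rule names are not reported here.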

Additional observations from a re-analysis of the deposited data

How the results depend on the processing

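Directions did not reverse for any of the 7 tested ligand and receptor genes or the 23 list genes taken by the naming rule in the alternatives run. Leaving out each library moved Csf1 between −1.82 and −1.56 (log2 fold change), Csf1r between 0.71 and 0.81, Csf2ra between −0.15 and −0.11, Csf2rb between 1.44 and 1.54, Csf2rb2 between 1.06 and 1.29, Csf3 between −3.50 and −2.78 and Csf3r between −2.03 and −1.67. On log2(FPKM + 1) the values were −0.88 for Csf1, 0.67 for Csf1r, −0.31 for Csf2ra and 1.22 for Csf2rb. They were 0.55 for Csf2rb2, −1.01 for Csf3 and −1.47 for Csf3r, and this pseudocount shrinks low genes by construction. On log2(FPKM + 0.1) the values were 0.67 for Csf1r, −0.31 for Csf2ra and 0.76 for Csf2rb2. Csf1r and Csf2ra thus had the same rounded values with either pseudocount. The cause of the gaps between these values and the count fits was not tested. Chosen after seeing the data, protein-coding rows alone gave −0.16 for Csf2ra, and Csf2rb summed with Csf2rb2 gave 1.39. Csf3 had no value with at least 10 counts required in every library.

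The number of genes called was 2951, between 2789 and 3105 with a library left out, 2785 with DESeq2, 1339 at a fold change over 2 and 7763 with no fold threshold. With no fold threshold, 57.4% of all tested genes were called. At that setting, 17 of 24 tested genes were called in CSF1R signalling, 9 of 13 in proteolysis and 9 of 12 transcription factors. In the beta common family 7 of 9 were called, and in the mitogenic list 8 of 11. At a fold change over 2, 1 was called in proteolysis and 1 in the beta common family, against 9.9% of all tested genes. On log2(FPKM + 1), 0 were called in CSF1R signalling, where 17 had an FDR under 0.05 in edgeR, and 1 in the GM-CSF list, which also had 1 with at least 10 counts in every library. CSF1R signalling ranged from 1 to 2 with a library left out. Of 367 alternatives for these list genes, 355 kept direction and call, and 12 lost the call (Src, Psen2, Ywhaz, Ccl22 and Kitl). Calls in the higher direction were 43.4% of all, and 39.0% with scaling by library size only.

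Replicate numbers did not pair the libraries: same-numbered libraries deviated together with r of 0.044, 0.040 and 0.025, although each correlated best with its own number. With the replicate block 2911 genes were called. Depth limited Il34, Csf2 and Csf3, and 3 libraries of 1 line per group limit every value.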
